A study of Mus musculus with 12 samples.

Results

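Basement membrane and matrix glycoprotein genes were followed in primary mouse brain endothelial cells (BECs) with and without the neuropeptide gene *Cort*. The 45 genes were taken by symbol from a list of laminins, nidogens, fibulins, elastic fibre genes, matricellular genes and proteoglycans. No measured value entered the rule, but the list was chosen with earlier results of these data known. All 45 were among the 32419 genes with a row in the deposited tables. They were divided by role into 6 subgroups. The cells came from 8-week-old *Cort*+/+ and *Cort*-/- mice on a C57BL/6 background, each replicate being a pool of 3 mice, and were enriched with puromycin and grown on collagen and fibronectin. RNA-seq libraries were made after 24 h in normoxia and normoglycaemia (NX/NG, 21% oxygen and 5.5 mM glucose) or after 4 h at 1% oxygen without glucose or serum and then 20 h back in oxygen and glucose (OGD-R, a culture model of ischaemia and reperfusion). Each environment had 3 *Cort*+/+ and 2 *Cort*-/- libraries with values (replicates 1 and 2 under NX/NG, 1 and 3 under OGD-R), and the other 2 listed *Cort*-/- samples were not used here. The knockout is carried by every cell type in the cultures, and whole-culture RNA cannot separate fewer cells of a type from less RNA per cell.

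The values are RPKM, reads scaled by gene length and library size, so levels can be compared between genes. Between 12386048 and 12390428 reads, recovered from the RPKM values, lay on genes in each library. These totals are nearly equal and lie below the average number of reads the paper reports. The sources used here do not say why, so they may not be the sequenced depth. For *Cort*, the targeted gene, wild-type cultures gave 2, 1 and 1 reads under NX/NG and 0, 0 and 1 after OGD-R, and knockout cultures 0 throughout, which is too few to check the labels. A pair of OGD-R libraries stood apart by their share of ribosomal RNA reads, which was 0.0951% (*Cort*-/- replicate 3) and 0.0775% (*Cort*+/+ replicate 1) and elsewhere 7.64 to 15.8%, so results after OGD-R are given with and without these libraries. Endothelial markers were high throughout, with *Cldn5*, a tight junction gene, at 105 to 136 RPKM.

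The basement membrane is a thin sheet on which the endothelium rests. Laminin trimers and type IV collagen form its networks, nidogens and the heparan sulphate proteoglycans perlecan and agrin bridge them, and in brain vessels the endothelial laminins carry the α4 and α5 chains. Fibrillins, fibulins and their partners build the microfibrils and elastic fibres of the matrix outside it, which is made largely by fibroblasts and mural cells, and matricellular proteins and small proteoglycans tune how cells bind that matrix.

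The 45 genes spanned a wide range of levels, with fibronectin and matricellular genes at the top. Averaged over the 10 libraries, 10 genes had at least 100 RPKM, 13 had between 10 and 100, 13 between 1 and 10, and 9 less than 1. *Fn1*, which encodes fibronectin, led with a mean of 2443 RPKM and was followed by *Thbs1* (thrombospondin-1, 1449), the collagen-binding *Sparc* (923), *Tnc* (tenascin-C, 268) and *Mgp* (matrix Gla protein, an inhibitor of calcification, 226). Elastin itself (*Eln*, 0.277 RPKM), the fibroblast proteoglycan *Lum* (0.0552) and periostin (*Postn*, 0.0536) lay at the other end. *Dcn* (decorin), another abundant product of fibroblasts in tissue, was at only 1.03 RPKM.

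**Figure D1:**
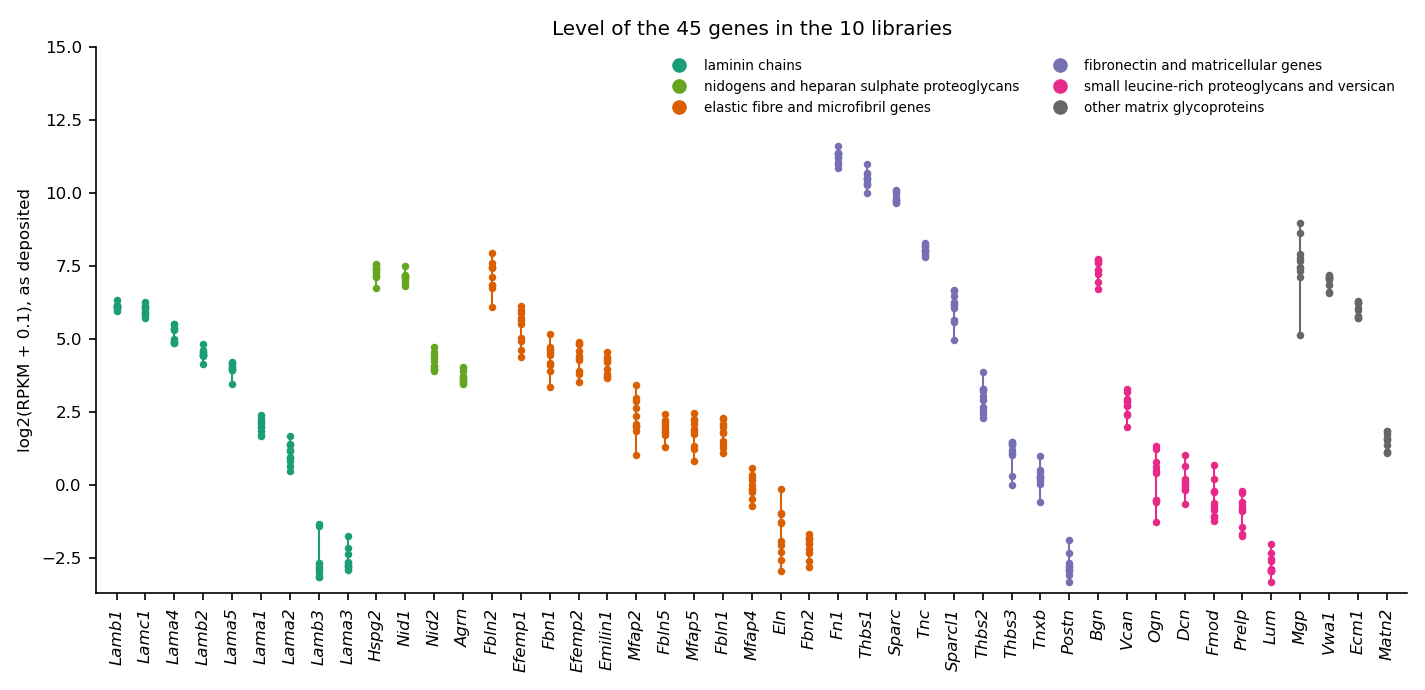
Level of each gene as log2(RPKM + 0.1), with one point per library (10 libraries) and a line from the lowest to the highest; genes are grouped by role and sorted by their mean. *Fn1*, *Thbs1* and *Sparc* stand at the top, while *Lamb3*, *Lama3*, *Postn* and *Lum* lie below 1 RPKM.

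The first question was whether the loss of *Cort* alone, without injury, goes with another matrix programme. Under NX/NG the members with an unadjusted p under 0.05 were all lower in *Cort*-/- BECs, and they were mostly genes of the interstitial matrix: 5 microfibril and elastic fibre genes, *Bgn* and *Vcan* among the proteoglycans, the thrombospondins *Thbs2* and *Thbs3*, and *Ecm1*, *Matn2* and the laminin chain *Lama2*. For the endothelial laminin chains *Lama4* and *Lama5*, perlecan and fibronectin the log2 differences were between 0.08 and 0.42, none past the test. No member was called at an adjusted p (false discovery rate) of at most 0.05 in limma, as was the case for 0% of the 29965 genes tested, and the smallest adjusted p among members was 0.192. At an unadjusted p under 0.05, 12 of 45 members were lower and 0 higher, beside 4.82% of all genes lower and 3.56% higher. The groups did not overlap for 17 members that were lower in *Cort*-/- and for 6 that were higher, against 12.3% and 10.8% of all genes. The members' median log2 fold change was -0.34 and that of all genes -0.01. A fit on the recovered reads (limma-voom) called 4 members at the same threshold, *Thbs3*, *Bgn* and *Efemp1* lower and *Fn1* higher, with 0.414% of all genes called. That all were lower depended on the setting. At an unadjusted p under 0.05, limma-voom had 21 lower and 7 higher members, beside 5.81% and 5.16% of all genes. A minimum of 1 RPKM gave 12 and 4 of 36 members, beside 7.75% and 5.42%. The fit without *Cort*+/+ NX/NG replicate 3 gave 14 and 4, beside 6.05% and 5.46%. Without *Cort*+/+ NX/NG replicate 2 there were 7 lower and 0 higher, beside 4.08% and 3.29%.

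**Figure D2:**
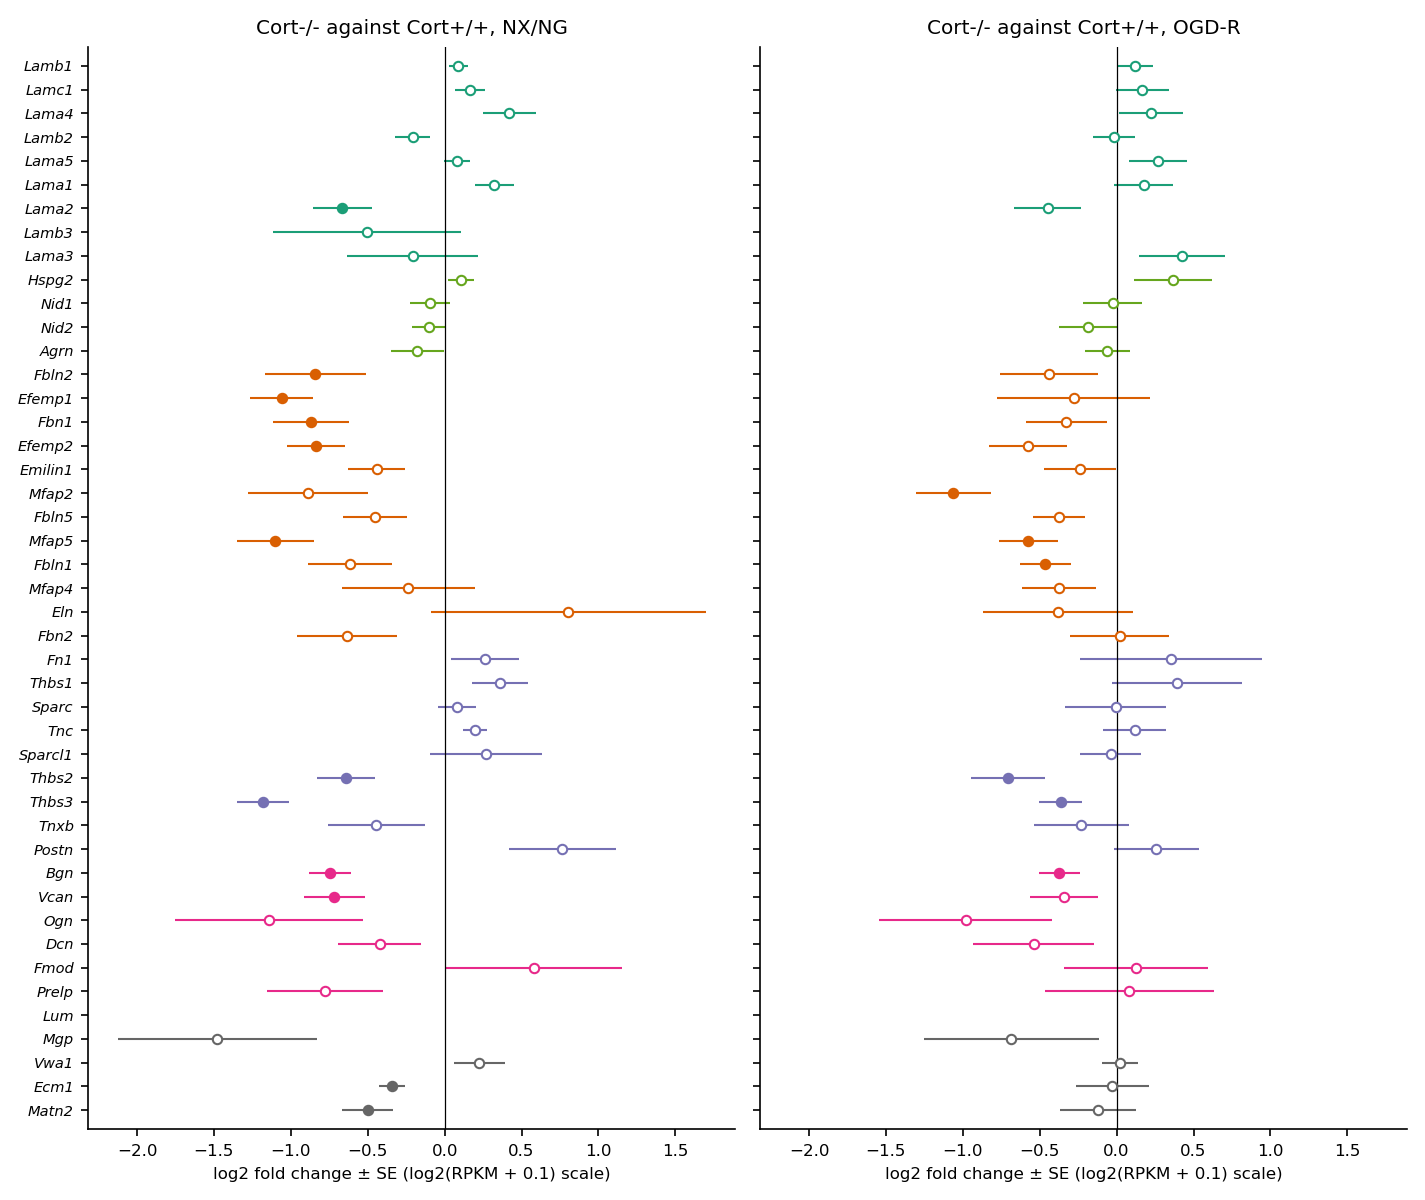
Log2 fold change of *Cort*-/- over *Cort*+/+ BECs for each gene, with its standard error from limma on log2(RPKM + 0.1), under NX/NG (left) and after OGD-R (right); filled points have an unadjusted p under 0.05, and points are left out where a group has at most 3 reads in every library. The 12 filled points under NX/NG and the 6 drawn after OGD-R all lie below 0.

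Among the 9 laminin chains, 1 was lower at an unadjusted p under 0.05, 4 had a log2 fold change below 0 and 5 above, and the median was 0.08. *Lamb1*, the main β chain here, had 62.7, 65.0 and 69.7 RPKM in *Cort*+/+ replicates 1, 2 and 3 and 70.6 and 69.2 in *Cort*-/- replicates 1 and 2, a log2 difference of 0.09 (SE 0.06). For *Lamc1*, the γ chain of nearly all laminins, the values were 56.5, 57.9 and 68.1 RPKM in *Cort*+/+ and 66.5 and 69.6 in *Cort*-/-, with a log2 difference of 0.17 (SE 0.10). In both genes the groups overlapped. The endothelial α4 chain gene *Lama4* had 29.6, 28.9 and 41.0 RPKM in *Cort*+/+ and 41.7 and 46.0 in *Cort*-/-, so that *Cort*+/+ replicate 3 came close to the lower *Cort*-/- library. Its log2 difference of 0.42 (SE 0.17) did not pass the test (unadjusted p = 0.0587 and adjusted p = 0.626 with limma).

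*Lama2*, the α2 chain of muscle and mural basement membranes, was the chain past that p. It had 2.47, 2.57 and 1.82 RPKM in the *Cort*+/+ libraries and 1.32 and 1.46 in the *Cort*-/- ones, and every *Cort*-/- value lay below every *Cort*+/+ value. The log2 difference was -0.67 (SE 0.19, unadjusted p = 0.0176 and adjusted p = 0.468 with limma). As a share of the summed RPKM of the 5 α chain genes, *Lama2* made up 4.19 ± 1.14% (SD, n = 3) in *Cort*+/+ and 2.06 ± 0.0753% (n = 2) in *Cort*-/- NX/NG libraries, while *Lama4* made up 59.2 ± 5.34% and 65.2 ± 2.15% and *Lama5*, the other endothelial α chain, 30.3 ± 4.34% and 26.3 ± 1.79%. *Lama1*, an α chain of early basement membranes, with a log2 difference of 0.32 (SE 0.13), *Lama5* with 0.08 (SE 0.09) and *Lamb2*, the β chain of mature vessels, with -0.21 (SE 0.11) did not pass the test.

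*Lama3* and *Lamb3*, chains of the laminin of epithelial basement membranes, were near the limit of detection and were highest in the same single libraries. *Lamb3* had 26 reads in *Cort*+/+ NX/NG replicate 2 and 22 in *Cort*-/- OGD-R replicate 1 but 1 to 5 reads in the other 8 libraries. *Lama3* was also highest in those libraries, with 28 and 16 reads against 4 to 13 elsewhere. The 5 epithelial markers summed to 49.7 and 37.0 RPKM there, and to 1.43 to 13.8 in the rest, with *Krt14* at no more than 3 reads in any library; their part in these 2 genes was not tested.

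For nidogens and heparan sulphate proteoglycans no difference exceeded the spread of the replicates. None of the 4 genes had an unadjusted p under 0.05, and all 4 had overlapping groups. *Hspg2*, which encodes perlecan, had 143, 165 and 154 RPKM in *Cort*+/+ and 170.3 and 160.4 in *Cort*-/- BECs, a log2 difference of 0.10 (SE 0.08). *Nid1*, the nidogen that ties laminin to type IV collagen, had 139, 142 and 119.5 RPKM in *Cort*+/+ and 139 and 112 in *Cort*-/- libraries, with a difference of -0.10 (SE 0.13). For *Nid2* and *Agrn* (agrin) the log2 differences were -0.10 (SE 0.11) and -0.18 (SE 0.17).

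The elastic fibre and microfibril genes, the largest subgroup, had by count the most members lower in *Cort*-/- BECs. Of these 12 genes, 11 had a log2 fold change below 0, 8 had groups that did not overlap, all of them lower, and 5 had an unadjusted p under 0.05. Of all genes, 12.3% were lower without overlap and 4.82% were lower at that p. The median log2 fold change was -0.74, and the summed RPKM of the 12 genes was 305 ± 71.2 (SD, n = 3) in *Cort*+/+ and 169.7 ± 36.1 (n = 2) in *Cort*-/- libraries. Among the 4 other matrix glycoproteins, 2 were lower at that p and 3 were lower without overlap. The shares were thus not particular to the elastic fibre genes.

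*Efemp1*, a fibulin of vessel walls, had 70.0, 59.1 and 45.2 RPKM in *Cort*+/+ replicates 1, 2 and 3 and 24.8 and 30.2 in *Cort*-/- replicates 1 and 2. All *Cort*-/- values were lower, with a log2 fold change of -1.06 (SE 0.20, unadjusted p = 0.00341 and adjusted p = 0.283 with limma). *Efemp2*, the fibulin needed for cross-linking of elastin, had 28.1, 23.8 and 19.3 RPKM in *Cort*+/+ and 14.7 and 11.6 in *Cort*-/-, again without overlap, and a log2 fold change of -0.84 (SE 0.19, unadjusted p = 0.0069 and adjusted p = 0.356 with limma). Both genes had their lowest *Cort*+/+ value in replicate 3.

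*Mfap5*, a microfibril-associated glycoprotein, had 4.68, 5.47 and 3.48 RPKM in *Cort*+/+ and 1.69 and 2.43 in *Cort*-/- libraries, with no overlap and a log2 fold change of -1.10 (SE 0.25, unadjusted p = 0.00675 and adjusted p = 0.354 with limma). *Fbn1*, which encodes fibrillin-1, the backbone of microfibrils, had 26.2, 25.5 and 17.3 RPKM in *Cort*+/+ and 14.8 and 10.3 in *Cort*-/-. Its groups did not overlap, although *Cort*+/+ replicate 3 lay nearer to *Cort*-/- replicate 1 than to the other *Cort*+/+ libraries, and the log2 fold change was -0.87 (SE 0.25, unadjusted p = 0.0167 and adjusted p = 0.461 with limma). *Fbln2*, the most abundant fibulin, had 196, 179 and 116 RPKM in *Cort*+/+ and 116 and 68.1 in *Cort*-/-. *Cort*+/+ replicate 3 and *Cort*-/- replicate 1 met there, and the log2 fold change was -0.84 (SE 0.33, unadjusted p = 0.0496 and adjusted p = 0.595 with limma), or -0.45 without *Cort*-/- replicate 2.

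The remaining genes of this subgroup had larger p values. *Mfap2* (-0.89), *Fbn2* (-0.64), *Fbln1* (-0.62), *Fbln5* (-0.45), *Emilin1* (-0.44) and *Mfap4* (-0.24) had log2 fold changes below 0. Apart groups were seen in *Fbn2*, *Fbln1*, *Fbln5* and *Emilin1*. *Eln* alone was above 0, at 0.80 (SE 0.89), with 32, 11 and 3 reads in *Cort*+/+ and 7 and 83 in *Cort*-/- libraries, and *Cort*-/- replicate 2 was far above the rest.

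**Figure D3:**
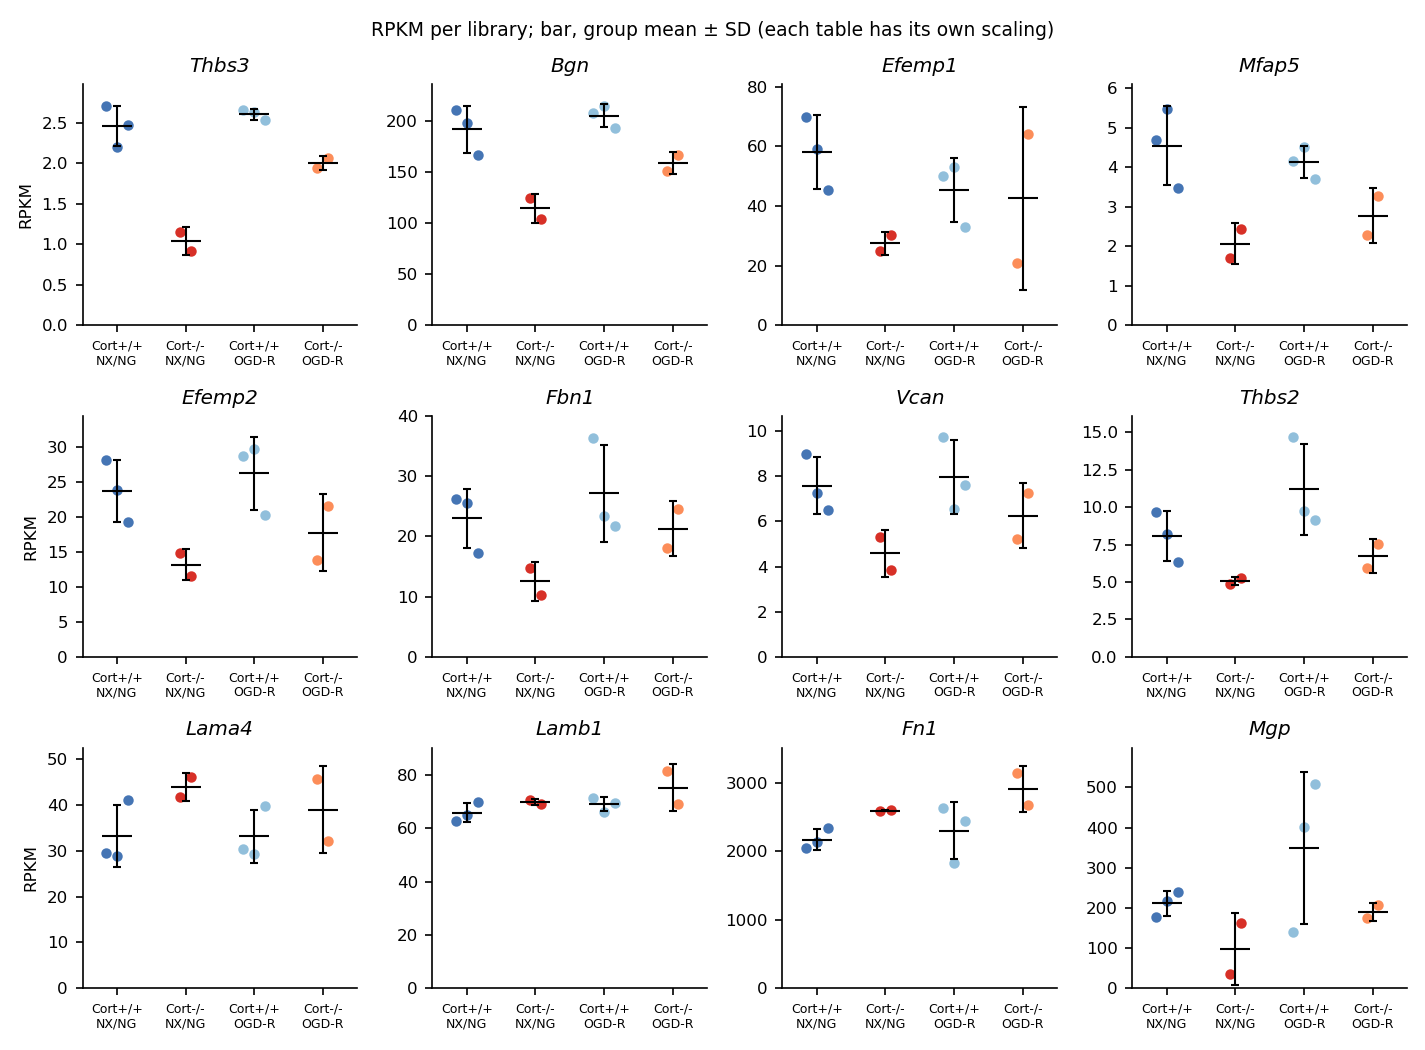
RPKM of 12 genes in every library (points), with the group mean and SD (bars; n = 3 for *Cort*+/+, n = 2 for *Cort*-/-); NX/NG and OGD-R libraries were scaled separately. From *Thbs3* to *Thbs2* the *Cort*-/- NX/NG points lie below all *Cort*+/+ NX/NG points, *Lama4* and *Fn1* lie above them, *Lamb1* overlaps, and *Mgp* has 1 far lower library.

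Fibronectin and matricellular genes went in both directions. Of the 9, 2 were lower at an unadjusted p under 0.05 (4.82% of all genes), and the median log2 fold change was 0.19. In 4 the *Cort*-/- values were above every *Cort*+/+ value (10.8% of all genes), and 1 of these was *Postn*, with 0 to 19 reads per NX/NG library. *Fn1* had 2042, 2131 and 2335 RPKM in *Cort*+/+ and 2593 and 2598 in *Cort*-/- BECs, with a log2 fold change of 0.26 (SE 0.22, unadjusted p = 0.293 and adjusted p = 0.766 with limma). *Thbs1*, an angiogenesis inhibitor, had 1029.7, 1284 and 1232 RPKM in *Cort*+/+ and 1423 and 1608 in *Cort*-/- libraries and a log2 fold change of 0.36 (SE 0.18, unadjusted p = 0.103 and adjusted p = 0.681 with limma). In both genes the *Cort*-/- libraries were the highest.

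The related thrombospondin gene *Thbs3* was the member with the smallest p. It had 2.71, 2.21 and 2.48 RPKM in *Cort*+/+ replicates 1, 2 and 3 and 1.16 and 0.914 in *Cort*-/- replicates 1 and 2. The *Cort*-/- values were less than every *Cort*+/+ value, and the log2 fold change was -1.18 (SE 0.17, unadjusted p = 0.000905 and adjusted p = 0.192 with limma). *Thbs2*, which like *Thbs1* restrains vessel growth, had 9.68, 8.20 and 6.34 RPKM in *Cort*+/+ and 4.86 and 5.28 in *Cort*-/- libraries, without overlap and with a log2 fold change of -0.64 (SE 0.19, unadjusted p = 0.0183 and adjusted p = 0.469 with limma). The other members were *Tnc* with a log2 fold change of 0.19, *Sparc* with 0.08, *Sparcl1* (hevin) with 0.27 and *Tnxb* (tenascin-X) with -0.45, none past the test. *Postn* had 0, 4 and 2 reads in *Cort*+/+ and 5 and 19 in *Cort*-/- NX/NG libraries.

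Among small leucine-rich proteoglycans and versican, 2 of 7 genes were lower at an unadjusted p under 0.05, and the median log2 fold change was -0.72. *Bgn* (biglycan), by far the most abundant, had 211, 198 and 167 RPKM in *Cort*+/+ and 124 and 104 in *Cort*-/- libraries. The groups were apart, with a log2 fold change of -0.74 (SE 0.14, unadjusted p = 0.00268 and adjusted p = 0.266 with limma). *Vcan*, a large hyaluronan-binding proteoglycan, had 9.00, 7.25 and 6.52 RPKM in *Cort*+/+ and 5.32 and 3.86 in *Cort*-/- libraries, also without overlap, and a log2 fold change of -0.72 (SE 0.20, unadjusted p = 0.0146 and adjusted p = 0.439 with limma). *Ogn* (-1.14, SE 0.61), *Prelp* (-0.78, SE 0.38), *Dcn* (-0.42, SE 0.27) and *Fmod* (0.58, SE 0.57) were below 2.5 RPKM in every library and had wide errors. *Lum* had 1 or 2 reads in each NX/NG library, and no fold is given.

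In the last subgroup *Ecm1*, a binding partner of perlecan, had 63.3, 74.9 and 66.6 RPKM in *Cort*+/+ and 54.3 and 52.9 in *Cort*-/- libraries, without overlap and with a small log2 fold change of -0.34 (SE 0.08, unadjusted p = 0.00922 and adjusted p = 0.385 with limma). *Matn2* (matrilin-2) had 3.53, 2.94 and 2.51 RPKM in *Cort*+/+ and 2.11 and 2.02 in *Cort*-/- libraries, also apart, and a log2 fold change of -0.50 (SE 0.17, unadjusted p = 0.029 and adjusted p = 0.526 with limma). *Vwa1*, a perlecan-binding protein of basement membranes, had 98.8, 95.1 and 130.1 RPKM in *Cort*+/+ and 137 and 114 in *Cort*-/- libraries, and the groups overlapped. *Mgp* had 179, 218 and 239 RPKM in *Cort*+/+ and 35.1 and 161 in *Cort*-/- libraries. Its log2 fold change of -1.48 (SE 0.65) was the lowest of all members, but it went to -0.38 without *Cort*-/- replicate 1 and to -2.58 without replicate 2.

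The upstream sequences of the 3 lower members with the smallest p, and that of the laminin gene *Lamb1* for comparison, are shown because the former were lower together and *Lamb1* had overlapping groups. They are the 250 bases before the RefSeq gene start (build GRCm38.p6, the gene's own strand, 5′ to 3′), and capitals mark matches, on either strand, to any of 4 motifs. The first is the GC box, spelled GGGCGG. The core of the hypoxia-response element was searched as ACGTG. The remaining motifs were a start-site motif spelled TATAAA, and the CCAAT box. The windows are chr3:89214930-89215179, plus strand for *Thbs3*, chrX:73483351-73483600, plus strand for *Bgn*, chr11:28852955-28853204, plus strand for *Efemp1* and chr12:31265043-31265292, plus strand for *Lamb1*.
Thbs3: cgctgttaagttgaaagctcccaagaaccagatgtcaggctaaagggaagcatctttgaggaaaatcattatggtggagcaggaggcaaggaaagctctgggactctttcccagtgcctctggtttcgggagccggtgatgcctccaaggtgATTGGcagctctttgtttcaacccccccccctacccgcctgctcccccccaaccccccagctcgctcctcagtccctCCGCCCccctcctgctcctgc
Bgn: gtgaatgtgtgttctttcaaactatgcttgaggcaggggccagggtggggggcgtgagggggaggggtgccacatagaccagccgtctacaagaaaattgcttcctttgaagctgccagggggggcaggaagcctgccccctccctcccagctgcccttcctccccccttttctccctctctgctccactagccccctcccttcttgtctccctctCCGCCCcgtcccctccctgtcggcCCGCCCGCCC
Efemp1: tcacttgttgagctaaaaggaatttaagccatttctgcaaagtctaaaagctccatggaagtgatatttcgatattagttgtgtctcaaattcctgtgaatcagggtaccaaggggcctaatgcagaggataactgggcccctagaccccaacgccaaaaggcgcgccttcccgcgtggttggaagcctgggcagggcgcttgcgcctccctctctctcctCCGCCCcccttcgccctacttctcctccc
Lamb1: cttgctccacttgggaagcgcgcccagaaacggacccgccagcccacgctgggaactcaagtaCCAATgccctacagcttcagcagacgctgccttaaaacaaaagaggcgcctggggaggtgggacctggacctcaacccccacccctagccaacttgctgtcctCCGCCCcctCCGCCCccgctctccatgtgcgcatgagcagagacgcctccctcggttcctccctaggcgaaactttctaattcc
No TATAAA match and no hypoxia-response core was found in these 4 windows. GC boxes numbered 1 in *Thbs3*, 3 in *Bgn*, 1 in *Efemp1* and 2 in *Lamb1*, and the matches in *Bgn* partly overlap. Starts were matched for 28 of the 45 members, and 10 of the 12 lower members. A GC box lay in 8 of these 10 windows, in 57.1% of the 28 and in 32.7% of all 32817 starts in the reference. A TATAAA match was in 2 of the 10 (12.4% of all starts), a CCAAT box in 3 (33.8%) and the hypoxia-response core in 1 (16.6%). These matches are letters in a window and show no binding.

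Members bind type IV collagen and are bound by integrins and syndecans, and these partners were counted from lists of their own. Of 8 basement membrane collagen genes, 0 had an unadjusted p under 0.05 in either direction (median log2 fold change 0.12). The gene with the smallest p, *Col18a1*, source of endostatin, had 140.1, 161 and 169 RPKM in *Cort*+/+ and 179 and 199 in *Cort*-/- NX/NG libraries. *Col4a5* and *Col4a3*, minor type IV chains, had log2 fold changes of -0.46 and 0.66, neither past the test.

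Of 22 matrix receptor genes, 7 were lower and 3 higher at an unadjusted p under 0.05, beside 4.82% and 3.56% of all genes. Log2 fold changes were below 0 in 12 and above 0 in 10, with a median of -0.04. The heparan sulphate receptor *Sdc2* (syndecan-2) had 22.2, 21.3 and 20.7 RPKM in *Cort*+/+ and 13.9 and 13.3 in *Cort*-/- libraries, with a log2 fold change of -0.65 (adjusted p = 0.0803 with limma). *Sdc4*, the syndecan of focal adhesions, had 30.9, 27.0 and 27.8 RPKM in *Cort*+/+ and 20.5 and 21.6 in *Cort*-/- libraries (log2 fold change -0.44). *Itgb5*, the β5 integrin, had 33.2, 40.2 and 26.9 RPKM in *Cort*+/+ and 12.6 and 17.0 in *Cort*-/- libraries (-1.16). These 3, chosen by the smallest p, were lower in both *Cort*-/- libraries, and the 3 receptors that were higher are not shown.

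Of 34 further matrix glycoprotein genes tested, out of 36 listed, 9 were lower and 2 higher at an unadjusted p under 0.05. The shares of all genes were 4.82% and 3.56%. Log2 fold changes were below 0 in 19 and above 0 in 15 (median -0.20). *Spp1* (osteopontin) had 799, 924 and 1025 RPKM in *Cort*+/+ and 358 and 526 in *Cort*-/- libraries, and its log2 fold change was -1.07. For *Tgfbi*, a collagen-binding protein, the values were 5.52, 4.98 and 5.20 RPKM in *Cort*+/+ and 3.05 and 3.86 in *Cort*-/- libraries (-0.59), and for *Ltbp3*, which anchors latent TGF-β, 16.8, 18.0 and 14.6 RPKM in *Cort*+/+ and 12.3 and 11.0 in *Cort*-/- libraries (-0.50). These genes, again chosen by the smallest p, were lower in both *Cort*-/- libraries.

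Under NX/NG the fibroblast, pericyte, leptomeningeal and astrocyte lists held markers lower at an unadjusted p under 0.05, beside 4.82% of all genes. The other marker lists had 0 lower. Of 7 fibroblast markers, 6 were lower in *Cort*-/- NX/NG libraries at an unadjusted p under 0.05, and the list summed to 206 to 294 RPKM in *Cort*+/+ and 89.7 to 131 in *Cort*-/-. *Col1a1*, the α1 chain of type I collagen, had 155, 166 and 113 RPKM in *Cort*+/+ and 67.5 and 46.5 in *Cort*-/-, whereas the receptor *Pdgfra* was between 0.319 and 0.706 RPKM (log2 fold change 0.66). Pericyte markers (3 of 7 lower) summed to 17.9 to 21.4 and 7.59 to 10.2 RPKM, with the defining *Kcnj8*, *Abcc9* and *Higd1b* at no more than 3 reads in any library. Leptomeningeal markers (3 of 6 lower) summed to 15.0 to 25.0 and 9.67 to 13.2 RPKM, with *Slc6a13* and *Slc47a1* at that same limit.

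Smooth muscle markers had 0 of 5 past an unadjusted p of 0.05 and summed to 1449 to 1777 RPKM in *Cort*+/+ and 1299.5 to 1556 in *Cort*-/- NX/NG libraries. The 8 endothelial markers, 1 of them higher at that p and 0 lower, summed to 1060.5 to 1319 and 1345 to 1484 RPKM. *Cort*+/+ NX/NG replicate 3 had the lowest value of the 3 *Cort*+/+ libraries in 10 of the 12 lower members and in 19 of all 45. The same held for 4 of the 7 fibroblast, 5 of the 5 smooth muscle, 4 of the 6 leptomeningeal, 3 of the 7 pericyte and 0 of the 8 endothelial markers. It also held for 3 of the 5 choroid plexus epithelial and 1 of the 5 epithelial markers. Among astrocyte, detected microglia and macrophage, and oligodendrocyte markers it was 2 of 4, 2 of 4 and 1 of 4. The part of these cell types in the lower matrix genes was not tested.
Astrocyte markers (2 of 4 lower at an unadjusted p under 0.05) summed to 13.6 to 18.7 RPKM in *Cort*+/+ and 7.86 to 10.5 in *Cort*-/- NX/NG libraries, with *Aqp4* at no more than 3 reads in any library, and their part was not tested either.
Choroid plexus epithelial, microglia and macrophage, and oligodendrocyte lists, with 0 genes past that p under NX/NG, summed to at most 19.7, 2.05 and 0.631 RPKM in any library.

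**Figure D4:**
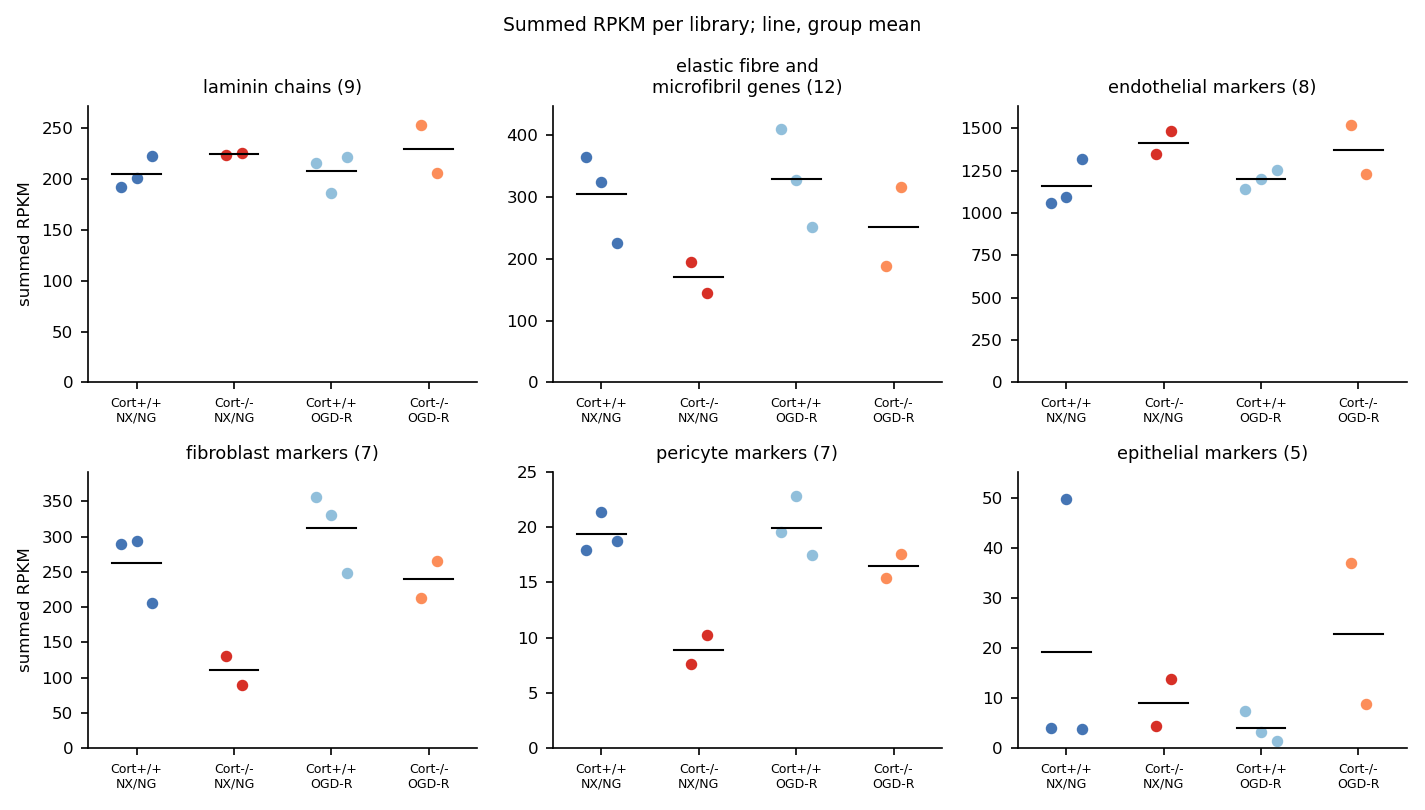
Summed RPKM in every library (points; line, group mean) of the laminin chains, the elastic fibre and microfibril genes and 4 marker lists, by genotype and environment. Under NX/NG the *Cort*-/- points of the laminin and endothelial sums lie just above the *Cort*+/+ points, those of the elastic fibre, fibroblast and pericyte sums lie below them, and the epithelial sum is high in 1 *Cort*+/+ NX/NG and 1 *Cort*-/- OGD-R library.

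After OGD-R the genotypes were compared in the same way, and the members past an unadjusted p of 0.05 were again all lower in *Cort*-/- BECs. No member was called (limma, adjusted p of at most 0.05; 0% of 29775 genes), and 7 were lower and 0 higher at an unadjusted p under 0.05, beside 1.71% and 1.72% of all genes. Groups were apart for 10 members that were lower and 4 that were higher (6.71% and 7.54% of all genes), and the members' median was -0.12. Without the libraries low in ribosomal RNA, which left 2 *Cort*+/+ libraries and 1 *Cort*-/- library, 3 members were lower and 2 higher at that p, beside 4.27% and 6.82% of all genes, so that these counts lay near the background. Without *Cort*-/- OGD-R replicate 1, which left 1 *Cort*-/- library, the members' median was -0.07. Without *Cort*+/+ replicate 2, 4 members were lower and 0 higher at that p, beside 1.81% and 1.6% of all genes. That all were lower depended on the setting here too. At that p limma-voom had 9 lower and 3 higher members, beside 2.2% and 1.85% of all genes.

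*Mfap2*, a microfibril component, had the smallest p, with 7.88, 10.8 and 6.22 RPKM in *Cort*+/+ replicates 1, 2 and 3 and 4.15 and 3.51 in *Cort*-/- replicates 1 and 3. The groups were apart and the log2 fold change was -1.06 (SE 0.24, unadjusted p = 0.00606 and adjusted p = 0.725 with limma). Without both low-ribosomal libraries it was -0.96, with unadjusted p = 0.217 in limma. *Mfap5* had 4.16, 4.52 and 3.71 RPKM in *Cort*+/+ and 2.28 and 3.27 in *Cort*-/- libraries, also apart, and a log2 fold change of -0.57 (SE 0.19), which was -0.82 without those libraries and -0.32 without *Cort*-/- replicate 1. *Fbln1*, an elastic fibre and basement membrane fibulin, had 4.88, 3.83 and 4.21 RPKM in *Cort*+/+ and 3.42 and 2.79 in *Cort*-/- libraries, a log2 fold change of -0.46 (SE 0.16), and -0.23 without them.

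*Thbs2* had 14.7, 9.77 and 9.14 RPKM in *Cort*+/+ and 5.92 and 7.53 in *Cort*-/- OGD-R libraries. Its highest value was in *Cort*+/+ replicate 1, the groups did not overlap, and the log2 fold change was -0.71 (SE 0.24), or -0.67 without the 2 libraries. *Bgn* had 208, 215 and 193 RPKM in *Cort*+/+ and 151 and 166 in *Cort*-/- libraries (-0.37, SE 0.14, and -0.43 without them). *Thbs3* had 2.66, 2.63 and 2.53 RPKM in *Cort*+/+ and 1.94 and 2.07 in *Cort*-/- libraries (-0.36, SE 0.14, and -0.39 without them), against -1.18 under NX/NG. The last of the 7, *Lum*, had 5, 2 and 3 reads in *Cort*+/+ and 0 and 1 in *Cort*-/- libraries, too few for a fold.

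*Efemp1* showed how far the *Cort*-/- OGD-R libraries were from each other, with 20.9 and 64.1 RPKM in replicates 1 and 3 against 50.1, 53.0 and 33.1 in *Cort*+/+. The *Cort*+/+ values lay between them. *Fbn1* (36.4, 23.4 and 21.8 RPKM in *Cort*+/+ and 18.1 and 24.5 in *Cort*-/- libraries) and *Vcan* (9.75, 6.54 and 7.60 RPKM in *Cort*+/+ and 5.23 and 7.27 in *Cort*-/- libraries) overlapped as well, and in all 3 genes the higher *Cort*-/- value was in replicate 3. Fibroblast markers summed to 248 to 357 RPKM in *Cort*+/+ and 213 to 266 in *Cort*-/- OGD-R libraries, and 3 of 7 were lower at an unadjusted p under 0.05. Leptomeningeal markers summed to 20.5 to 23.2 and 10.3 to 17.9 RPKM (2 of 6 lower), and astrocyte markers to 14.9 to 15.5 and 9.12 to 12.2 RPKM (1 of 3 tested lower). Pericyte sums were 17.4 to 22.9 and 15.4 to 17.6 RPKM (1 of 7 lower), and epithelial sums 1.43 to 7.45 and 8.81 to 37.0 RPKM (1 of 5 higher). The part of these cell types in the values after OGD-R was not tested.

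The NX/NG and OGD-R comparisons share no library, so their directions can be set side by side. All 12 members that were lower under NX/NG, which those values chose, had a log2 fold change below 0 after OGD-R, with a median of -0.37 there and -0.79 under NX/NG. Among all genes lower under NX/NG at the same p, 82.5% were below 0 after OGD-R, so the shared direction was common to the whole table. In both environments the *Cort*-/- values were below every *Cort*+/+ value for 7 members, *Lama2*, *Fbln1*, *Fbln5*, *Mfap5*, *Thbs2*, *Thbs3* and *Bgn*, beside 2.38% of all genes. They were above for 2 members, *Fn1* and *Thbs1*, and for 609 of all 27321 genes. These 9 genes were picked out after their values were seen.

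**Figure D5:**
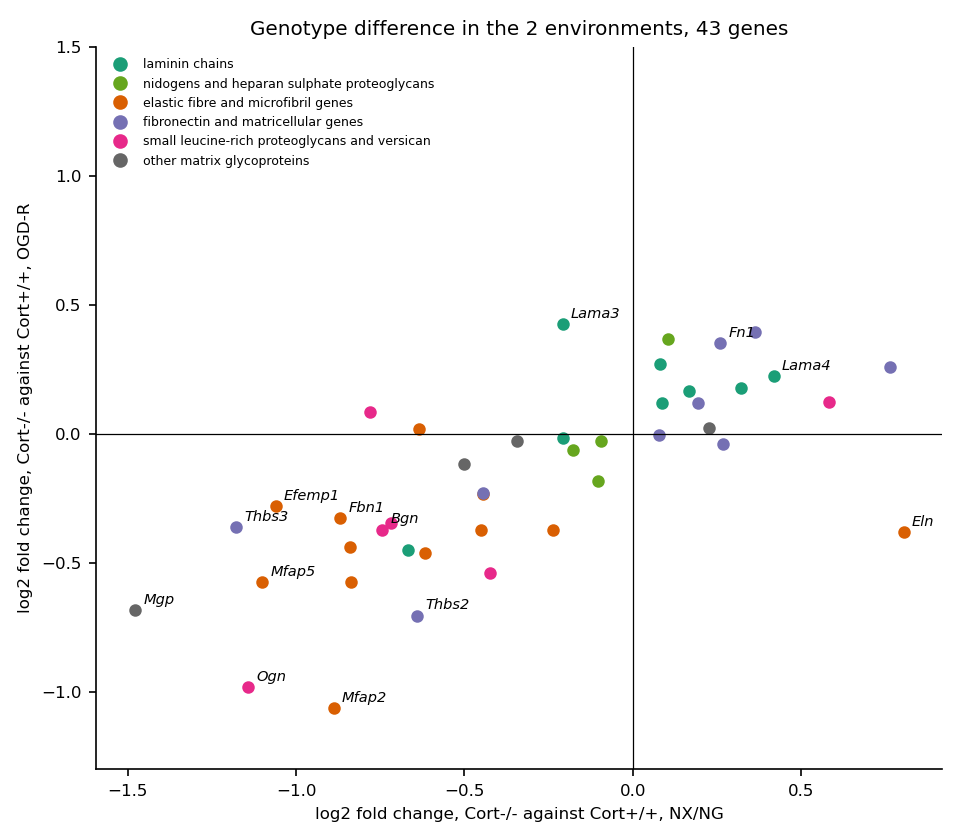
Log2 fold change of *Cort*-/- over *Cort*+/+ BECs under NX/NG (horizontal) and after OGD-R (vertical), 1 point per gene for 43 genes; *Lum* and *Lamb3*, with a group at no more than 3 reads per library, are left out. Of the elastic fibre genes 10 of 12 lie at the lower left, and of the laminin chains drawn 5 of 8 lie at the upper right.

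Next, OGD-R was compared with NX/NG within each genotype, on RPKM of both tables put on one scale, to ask which members move with the injury. In *Cort*+/+ BECs *Sparcl1* and *Nid2* were the detected members past an unadjusted p of 0.05, both higher after OGD-R. No member was among the 0.0332% of 27075 genes called by limma, 3 were higher and 0 lower at an unadjusted p under 0.05 (3.01% of all genes higher), groups were apart for 3 higher and 3 lower members (5.12% and 5.05% of all genes), and the median was 0.07. Leaving out *Cort*+/+ NX/NG replicate 2 left 0 members at that p (4.46% of all genes), and leaving out NX/NG replicate 3 gave 5 (4.42%). Without *Cort*+/+ OGD-R replicate 1 the numbers were 2 higher and 2 lower, beside 3.71% and 3.06% of all genes.

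*Sparcl1*, an antiadhesive glycoprotein of the *Sparc* family, had 49.3, 32.1 and 73.6 jointly scaled RPKM under NX/NG and 74.7, 87.6 and 98.2 after OGD-R in *Cort*+/+ BECs. The highest NX/NG library lay just under the lowest OGD-R library, and the log2 fold change was 0.82 (SE 0.29, unadjusted p = 0.0283 and adjusted p = 0.881 with limma). *Nid2* had 17.3, 15.2 and 19.5 jointly scaled RPKM under NX/NG and 21.5, 19.6 and 25.7 after OGD-R, with barely separated groups and a log2 fold change of 0.36 (SE 0.13, unadjusted p = 0.0316 and adjusted p = 0.881 with limma). Without *Cort*+/+ OGD-R replicate 1 the log2 fold changes of *Sparcl1* and *Nid2* were 0.92 and 0.38, and without *Cort*+/+ NX/NG replicate 2 they were 0.52 and 0.27. *Lum* was the other gene, on 1 read per NX/NG library and 2 to 5 per OGD-R library.

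In *Cort*-/- BECs, with 2 libraries per environment, 36 of 45 members had a log2 fold change above 0 and the median was 0.23. Again no member was called (0% of 26523 genes in limma), 2 were higher and 0 lower at an unadjusted p under 0.05 (2.21% of all genes higher), and groups were apart for 12 higher and 2 lower members, beside 14.4% and 15.9% of all genes. Leaving out any 1 library left 1 in its group, and the members' median was then 0.14 to 0.21. This comparison has the *Cort*-/- NX/NG libraries in common with that of the genotypes under NX/NG.

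*Thbs3* had 1.19 and 0.941 jointly scaled RPKM under NX/NG and 1.89 and 2.01 after OGD-R in *Cort*-/- BECs, a log2 fold change of 0.82 (SE 0.22, unadjusted p = 0.0193 and adjusted p = 0.922 with limma). *Fbn1* had 15.2 and 10.6 jointly scaled RPKM under NX/NG and 17.6 and 23.9 after OGD-R, a log2 fold change of 0.69 (SE 0.25, unadjusted p = 0.0486 and adjusted p = 0.922 with limma). In both genes the OGD-R libraries were above the NX/NG ones, and without *Cort*-/- OGD-R replicate 3 the log2 fold changes were 0.78 and 0.47. Without *Cort*-/- NX/NG replicate 2 that of *Fbn1* was 0.43. Of the 7 fibroblast markers 4 were higher after OGD-R at an unadjusted p under 0.05, *Col1a1* by 1.13 on the log2 scale; the part of this in the 2 genes was not tested.

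The interaction asks whether the response to OGD-R differed between genotypes. No member was among the 0.011% of 27321 genes called by limma, and 2 of 45 had an unadjusted p under 0.05, beside 2.85% of all genes. The members' median was 0.15, or 0.17 without the libraries low in ribosomal RNA. For *Thbs3* the log2 fold change between environments was 0.01 in *Cort*+/+ and 0.82 in *Cort*-/- BECs, a difference of 0.81 (SE 0.21, unadjusted p = 0.00404 and adjusted p = 1 with limma) that was 0.78 without those libraries. *Lum*, the other gene, rests on 0 to 5 reads per library. *Bgn* had 0.03 in *Cort*+/+ and 0.40 in *Cort*-/- BECs, and that difference of 0.37 (SE 0.18) did not pass the test.

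*Cort* lies on chromosome 4, and 3 members lie within 10 Mb of it in GENCODE vM21 on GRCm38, *Vwa1* at 6.64 Mb, *Agrn* at 7.04 Mb and *Mfap2* at 8.11 Mb. Between the genotypes, log2 differences under NX/NG and after OGD-R were -0.89 and -1.06 for *Mfap2*, -0.18 and -0.06 for *Agrn*, and 0.23 and 0.02 for *Vwa1*.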

How the data were processed

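RNA-seq of BEC pools was processed by the authors with the reanalyzerGSE software, chosen to keep weakly expressed genes, and edgeR is named in the submitters' processing notes. The aligner, counter, genome build and annotation are not given in the sources used here. Culture conditions, age and pooling follow the study's methods, whereas the sample labels name a mouse stroke model (MCAO) and a different library kit and read length. The deposited RPKM values were scaled by the authors over the 5 libraries of an environment, apart from the other environment. Deposited columns of the authors' own comparisons (log2 fold change, mean abundance, p-value, FDR) and 10 columns of expression categories were not used. RPKM times gene length, divided by what 1 read is worth in that library, was within 0.05 of a whole number for at least 99.9958% of the values above 0 in every library, which gave the reads per gene. These cover 12386048 to 12390428 reads, nearly equal totals that may not be the sequenced depth. Both limma-voom and the floor rest on them. A group with at most 3 of these reads in every library was taken to be at the floor.

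Each comparison was fitted with limma 3.58.1 in R 4.3.3 on log2(RPKM + 0.1), with a trend, over all genes with a value above 0 and only the groups compared, with Benjamini-Hochberg adjustment over all genes (called at 0.05). Fold changes on this scale understate changes of low genes. Before environments were compared, library sizes of all 10 libraries were set by a trimmed mean of M values over the 27321 genes that both tables list. The fit was tested on simulated reads with 200 changed genes, in the NX/NG design alone and with a fixed dispersion. The OGD-R libraries were not simulated, so the test does not cover their spread. Replicate pairs within a group differed by more than sampling noise. The sources describe pools of mice as biological replicates, but do not say which pools were shared between environments. Values are given per library for the members with an unadjusted p under 0.05 in a comparison (at most 10), the 2 most abundant of each subgroup, and up to 3 genes of each pathway list, in addition to others singled out after their values were seen. The members and all lists were chosen with earlier results of these data known. Alternatives were a pseudocount of 1, a minimum of 1 RPKM in 2 libraries, quantile normalization, limma-voom, all groups in one fit, the replicate number as a block, deposited scaling, and each library left out. Leaving out both libraries low in ribosomal RNA was added for the environment and interaction comparisons after the data were seen. Upstream sequences come from RefSeq (GRCm38.p6), matched by symbol; *Lama1*, *Lama3*, *Lama4*, *Lamc1*, *Nid2*, *Fn1*, *Fbn2*, *Eln*, *Mfap4*, *Mfap5*, *Sparcl1*, *Thbs1*, *Dcn*, *Lum*, *Vwa1*, *Matn2* and *Mgp* had no entry.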

Additional observations from a re-analysis of the deposited data

How the results depend on the processing

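No library left out gave a called member in any of the 5 comparisons (0 to 0), and limma-voom, with 4 called under NX/NG, was the alternative that did. The number of members at an unadjusted p under 0.05 ranged, with 1 library left out at a time (a lone library being assumed to vary like the other groups), from 7 to 18 for the genotypes under NX/NG (12 with all), 2 to 7 after OGD-R (7), 0 to 5 for OGD-R in *Cort*+/+ (3), 1 to 9 in *Cort*-/- (2) and 2 to 5 for the interaction (2). The medians of the members then ranged from -0.40 to -0.25, -0.28 to -0.074, -0.01 to 0.12, 0.14 to 0.21 and 0.053 to 0.22, in the same order. The share of all genes at that p also moved with the library left out. For the genotypes under NX/NG it was 6.15% without *Cort*+/+ NX/NG replicate 1 and 11.5% without replicate 3. The ranges of member counts alone therefore do not set the members apart from all genes. With limma-voom the numbers of members were 28 (21 lower and 7 higher), 12, 10, 6 and 4. The shares of all genes were 11%, 4.04%, 5.57%, 3.98% and 2.71%, in the same order. The limma-voom medians under NX/NG and for OGD-R in *Cort*-/- were -0.42 and 0.24. A pseudocount of 1 gave medians of -0.17 for the genotypes under NX/NG and 0.16 for OGD-R in *Cort*-/-. The minimum of 1 RPKM gave medians of -0.23 for the genotypes after OGD-R and 0.24 for OGD-R in *Cort*-/-. It gave 1 member for the interaction (1.78% of all genes). For OGD-R in *Cort*-/-, quantile normalization gave 1 member (4.09% of all genes) and a median of 0.25. The deposited scaling gave 4 members (4.68%) and 0.30, and leaving out both libraries low in ribosomal RNA a median of 0.14. All groups in one fit gave 5 members for OGD-R in *Cort*+/+ (5% of all genes). The causes of these moves were not tested. No gene named for a p reversed its direction under any of these alternatives. With genes at the floor left out or at their bound, the median under NX/NG was -0.38 over 44 genes.

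Deviations of same-numbered libraries from their group means correlated at -0.39 to 0.11. This cannot settle whether the replicate numbers pair the libraries. In groups of 2 the deviations mirror each other, and the libraries low in ribosomal RNA carry different numbers. With the replicate block, 17 members had an unadjusted p under 0.05 for the genotypes under NX/NG (9.18% of all genes) and 2 after OGD-R (2.64%). There were 5 for OGD-R in *Cort*+/+ (5.23%) and 2 for the interaction (2.75%), and 0 were called. The block could not be fitted for OGD-R in *Cort*-/-, whose groups share 1 number. Low members rest on few reads, and 2 *Cort*-/- libraries per environment limit every comparison of genotypes.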
